A study of Arabidopsis thaliana with 6 samples.

Results

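The nuclear genes that encode the protein import machinery of mitochondria were followed in roots of Arabidopsis thaliana. They were chosen by gene identifier, as subunits of the TOM, TIM, PAM, SAM and MIA complexes and of the mitochondrial processing peptidase (MPP). There were 42 such genes among the 32833 of the deposited table, and all 42 had reads in at least 1 library and were tested. RNA sequencing compared xal1-2 mutants, which carry a mutant allele of the MADS-box transcription factor gene XAANTAL1 (XAL1, also AGL12), with wild-type (WT) plants, both in the Col-0 background. Each group had 3 biological replicates, each a pool of around 60 plants. In both groups, roots of 8-day-old seedlings without hypocotyl and cotyledons were taken from vertical plates of MS 0.2X medium with 1% sucrose, held at 22 °C under 16 h of light and 8 h of dark. The labels list no other treatment.

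Most mitochondrial proteins are made in the cytosol and enter through the TOM complex of the outer membrane, whose TOM20 and OM64 receptors recognise precursors and whose TOM40 barrel forms the pore. From there, precursors with a cleavable presequence pass the inner membrane through TIM23 and are pulled in by the PAM motor before MPP removes the presequence. Carrier proteins are escorted by the small TIM chaperones to TIM22, beta-barrel proteins are inserted by SAM, and small cysteine-rich proteins are trapped by MIA40 with the help of the oxidase ERV1. In plants the TOM20 receptors arose independently of those of animals and fungi, and MPP is built into the cytochrome bc1 complex of the respiratory chain.

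Values are read counts divided by a size factor for each library ("scaled counts"), from 6978879 to 9247089 reads per library. XAL1 had 76.5, 102 and 103 scaled counts in xal1-2, against 263.8, 250.1 and 269 in WT, and the groups did not overlap (log2 fold change -1.48, SE 0.14, limma adjusted p = 0.00034). Each log2 fold change is that of log2(scaled count + 1), xal1-2 minus WT, a scale that understates changes of genes at low level. A gene was called at a limma adjusted p under 0.05 over all 24441 genes tested. Over all of these, 1.66% were called higher and 2.27% lower (3.93% in either direction), and the median log2 fold change was -0.004.

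Of the 42 import genes, 11 were called higher in xal1-2 (26.2%, against 1.66% of all genes tested) and 0 were called lower, while 31 were not called. The called genes were TOM7-2, AT1G50400, OM64 and TOM20-2 of TOM, SD3 of TIM23, TIM10 and TIM13 of the small TIM chaperones, MEE67 of TIM22, MIA40, and PAM16L and AT5G03030 of the motor. With limma, 24 of the 42 had an unadjusted p under 0.05, all of them with a fold change above 0. No share at this threshold was taken over all genes tested, so this count has no background beside it. The log2 fold change was above 0 in 38 of 42, against 49.5% of all genes tested, and the median over the 42 was 0.36. Among the 38 were TIM17-1 and TIM44-1, which had at most 3 reads in a library. In 27 of 42 every xal1-2 library lay above every WT library, which was so for 12.1% of all genes tested. Among the 31 import genes with a mean scaled count of at least 100, 8 were called higher, against 2.17% of the 12045 genes of that level. In bulk roots, fewer cells of a type and less RNA per cell cannot be told apart.

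The number of calls changed with the libraries in the fit. Without xal1-2 replicate 1, 2 or 3, limma called 0, 2 and 5 of the 42 higher, and without WT replicate 1, 2 or 3 it called 3, 1 and 10, while the median log2 fold change stayed between 0.32 and 0.39. With all 6 libraries, edgeR, limma-voom and DESeq2 called 13, 12 and 10 of the 42 higher and 0 lower. DESeq2 did not call SD3 (adjusted p = 0.0544) or MIA40 (adjusted p = 0.0726) and called TOM40 (adjusted p = 0.0405). To the 11 genes edgeR added TIM9 and TIM44-2 (adjusted p = 0.0463 and 0.0457), and limma-voom added TIM44-2 (adjusted p = 0.0482). When genes at 0 in every library were left in the fit, limma called 0 of the 42. Library totals in place of size factors gave 569 genes higher and 401 lower over all genes, against 405 and 556 with size factors, and 16 of the 42 higher.

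**Figure D1:**
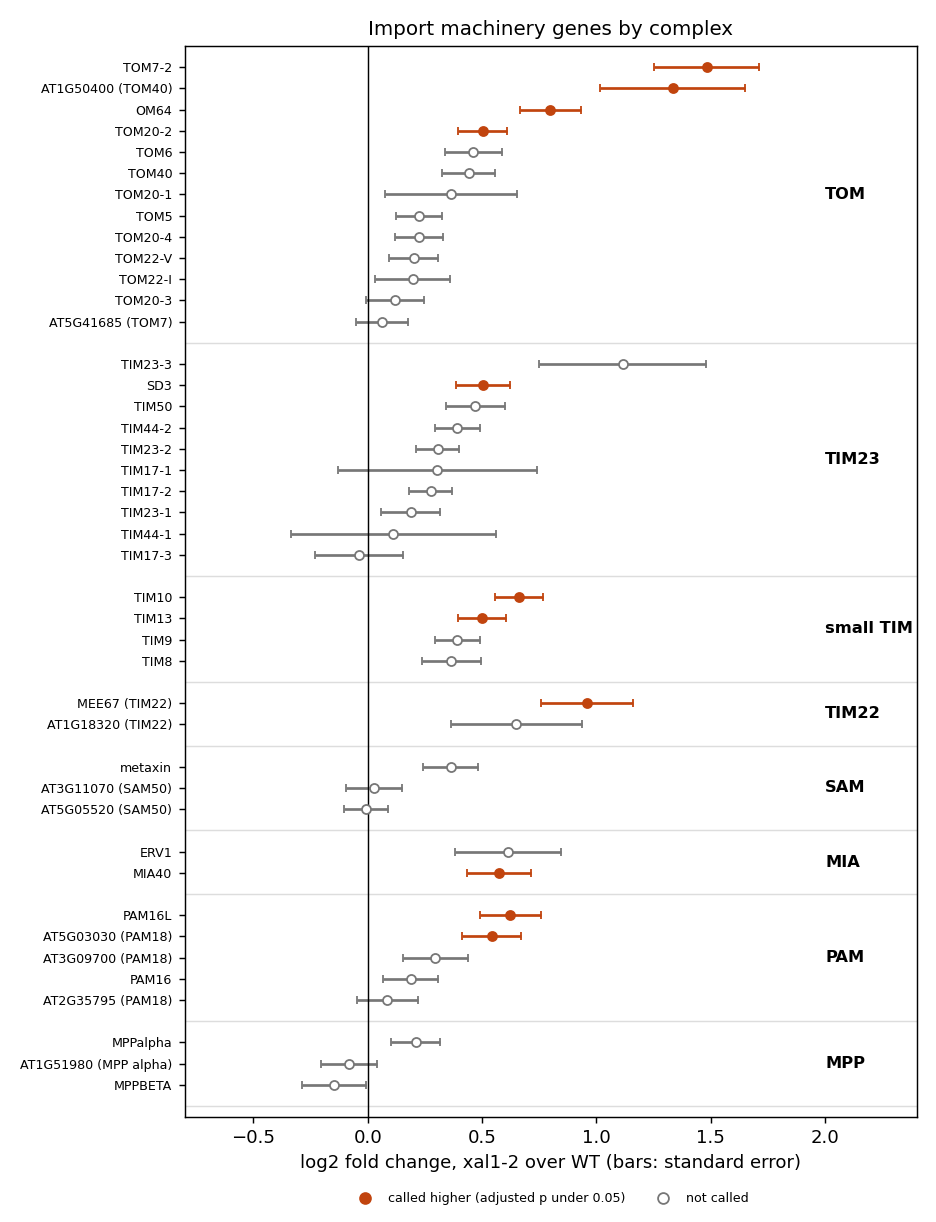
Log2 fold change of each of the 42 import genes, xal1-2 over WT, grouped by complex (points, limma estimate; bars, standard error; filled points, called higher). 38 of 42 points lie to the right of 0, and the others are TIM17-3, AT5G05520, AT1G51980 and MPPBETA.

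The TOM complex held TOM7-2 and AT1G50400, the genes with the largest fold changes of the 42. Of its 13 genes, 4 were called higher and 0 lower, all 13 had a log2 fold change above 0, and the median was 0.36. In 10 of them every xal1-2 library lay above every WT library.

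TOM7 is a small subunit that, in yeast, regulates the assembly of the complex. TOM7-2 (AT1G64220, chr1:23833088-23833393, minus strand, TAIR10.1) had 91.3, 87.8 and 66.2 scaled counts in xal1-2, against 22.8, 28.65 and 34.7 in WT. The lowest mutant library was well above the highest WT library (log2 fold change 1.48, SE 0.23, limma adjusted p = 0.00686), and this was the largest fold change of the 42. The other TOM7 gene, AT5G41685 (chr5:16669149-16669723, minus strand), had 390.35, 393 and 360.03 scaled counts in xal1-2, against 389.72, 316 and 394 in WT. Those groups overlapped (log2 fold change 0.06, SE 0.11, limma adjusted p = 0.791).

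Since only one copy was called, the coding sequences of both are shown, from RefSeq in TAIR10.1, each from its start codon to its stop codon. Capitals mark the bases that differ from, or have no partner in, the other copy. In the alignment 52 of 225 aligned bases differed (76.9% identity), and the copies shared no stretch of 50 identical bases.
AT5G41685: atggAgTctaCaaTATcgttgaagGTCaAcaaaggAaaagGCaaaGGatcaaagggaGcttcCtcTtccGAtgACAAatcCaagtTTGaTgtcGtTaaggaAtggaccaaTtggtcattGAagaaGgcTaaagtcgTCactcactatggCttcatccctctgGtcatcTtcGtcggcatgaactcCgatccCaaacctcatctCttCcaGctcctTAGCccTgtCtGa
TOM7-2: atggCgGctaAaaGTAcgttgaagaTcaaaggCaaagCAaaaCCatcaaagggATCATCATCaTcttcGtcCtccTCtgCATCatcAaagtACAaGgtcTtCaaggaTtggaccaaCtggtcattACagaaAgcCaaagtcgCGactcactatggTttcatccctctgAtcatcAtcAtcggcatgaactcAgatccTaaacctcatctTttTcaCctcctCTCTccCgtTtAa
The differing bases are spread along the whole length. The count of AT5G41685 has a limit of its own, since 59.3% of its exon bases are overlapped on the opposite strand by AT5G41680. The libraries were stranded per the labels, but with the strand setting of the counting not given in the sources used here, its count may hold reads of that neighbour.

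TOM40 is the barrel of the import pore. The main gene, TOM40 (AT3G20000, chr3:6967462-6970652, plus strand), had 817, 816 and 649 scaled counts in xal1-2, against 509, 562 and 604 in WT. The groups did not overlap, but the gene was not called (log2 fold change 0.44, SE 0.12, limma adjusted p = 0.0604). It was called with DESeq2 (adjusted p = 0.0405), with library totals (limma adjusted p = 0.0448) and without xal1-2 replicate 3 (limma adjusted p = 0.0394). AT1G50400 (chr1:18668010-18670576, plus strand), annotated as a eukaryotic porin family protein and 76.5% identical to TOM40 over its coding bases, had 71.9, 50.6 and 65.3 scaled counts in xal1-2, against 14.1, 26.4 and 36.6 in WT. All mutant libraries were above all WT libraries (log2 fold change 1.33, SE 0.32, limma adjusted p = 0.0437).

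Precursor receptors are encoded by OM64 and 4 TOM20 genes, of which TOM20-1 was low. OM64 (AT5G09420, chr5:2928173-2932021, plus strand, annotated as TOC64-V), a receptor related to a chloroplast import protein, had 251, 272 and 201 scaled counts in xal1-2, against 139, 134 and 138 in WT. The WT libraries lay close together and every mutant library was above them (log2 fold change 0.80, SE 0.13, limma adjusted p = 0.01). TOM20-2 (AT1G27390, chr1:9513081-9515050, minus strand) had 431, 497 and 436 scaled counts in xal1-2, against 342, 291 and 329 in WT. It was the called member of its family (log2 fold change 0.50, SE 0.11, limma adjusted p = 0.0291).

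The remaining TOM20 genes were not called. TOM20-4 (AT5G40930) had 305, 322 and 279.7 scaled counts in xal1-2, against 256, 257 and 261 in WT, without overlap (log2 fold change 0.22, SE 0.10, limma adjusted p = 0.262). TOM20-3 (AT3G27080) had 316.16, 423 and 350.3 scaled counts in xal1-2, against 315.9, 366 and 316.21 in WT, with overlap (log2 fold change 0.12, SE 0.13, limma adjusted p = 0.668). TOM20-1 (AT3G27070) had 21.7, 29.3 and 18.5 scaled counts in xal1-2, against 18.45, 14.3 and 20.1 in WT, also with overlap (log2 fold change 0.36, SE 0.29, limma adjusted p = 0.538). Of the other small subunits and receptors, TOM6 (0.46), TOM5 (0.22), TOM22-V (0.20) and TOM22-I (0.20) had positive log2 fold changes that were not called, with limma adjusted p-values of 0.0635, 0.243, 0.335 and 0.565.

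**Figure D2:**
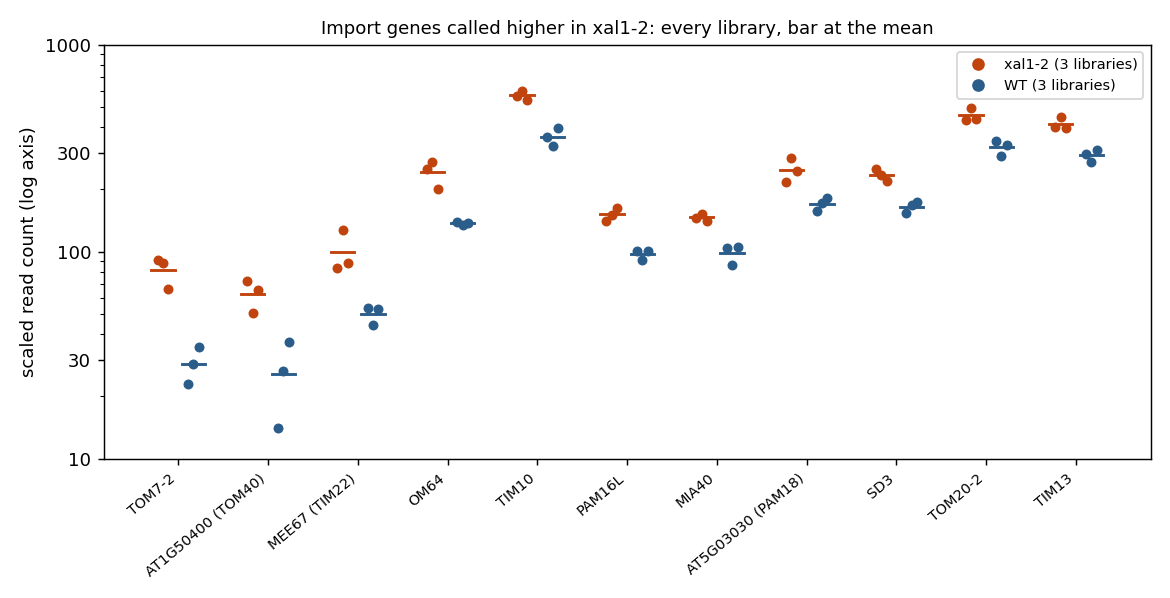
Scaled read counts (log axis) of the 11 called import genes in each of the 3 xal1-2 and 3 WT libraries, ordered by fold change (points, libraries; bars, means). For each gene the lowest mutant library lies above the highest WT library.

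The TIM23 complex is the presequence channel of the inner membrane. Of its 10 genes 1 was called higher and 0 lower, 9 of 10 had a log2 fold change above 0, and the median was 0.30. These counts and the median include TIM17-1 and TIM44-1, which had at most 3 reads in a library. The called gene was SD3 (AT4G00026, chr4:10815-13359, minus strand), a subunit related to TIM21 of yeast. It had 249.96, 234 and 219.7 scaled counts in xal1-2, against 154, 167 and 174 in WT, without overlap (log2 fold change 0.50, SE 0.12, limma adjusted p = 0.0381). This call was lost with DESeq2 (adjusted p = 0.0544) and held under 8 of the 16 alternatives. TIM50, the receptor on the intermembrane side (0.47, limma adjusted p = 0.0685), and TIM44-2, which anchors the motor (0.39, limma adjusted p = 0.0524), had log2 fold changes near that of SD3 but were not called.

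The channel genes were not called. The most abundant, TIM17-2 and TIM23-2, had log2 fold changes of 0.28 and 0.31 with limma adjusted p-values of 0.129 and 0.101. TIM23-3 (AT3G04800, chr3:1314479-1315045, minus strand) had 18.3, 12.4 and 14.1 scaled counts in xal1-2, against 4.34, 5.51 and 10.05 in WT. Its fold change was the third largest of the 42 and its groups did not overlap, but it was not called (log2 fold change 1.12, SE 0.36, limma adjusted p = 0.116). TIM17-3 (AT5G11690, chr5:3761188-3762346, plus strand) had 100.4, 88.7 and 97.1 scaled counts in xal1-2, against 90.1, 79.3 and 132 in WT. The highest and the lowest library were both WT (log2 fold change -0.04, SE 0.19, limma adjusted p = 0.93). TIM17-1 had 1 read in xal1-2 replicate 3 and 0 in the other libraries, and TIM44-1 had 1 to 3 reads in each library, so neither could show a difference at this depth.

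The import motor of the matrix side is regulated by PAM18, a J-domain protein, and PAM16, its partner. Of these 5 genes 2 were called higher and 0 lower, with a median log2 fold change of 0.30. PAM16L (AT5G61880, chr5:24850211-24851803, plus strand) had 140.4, 151 and 162 scaled counts in xal1-2, against 101, 91.5 and 100.5 in WT (log2 fold change 0.62, SE 0.14, limma adjusted p = 0.0295). PAM16 (AT3G59280, also TXR1) had 385, 470.2 and 515 scaled counts in xal1-2, against 429, 399 and 369 in WT (log2 fold change 0.19, SE 0.12, limma adjusted p = 0.441). Only the first of this pair separated the groups: for PAM16, xal1-2 replicate 1 lay within the WT range.

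Among the PAM18 genes, AT5G03030 (chr5:708318-709734, minus strand) had 217, 283 and 244 scaled counts in xal1-2, against 156, 171 and 181 in WT (log2 fold change 0.54, SE 0.13, limma adjusted p = 0.0438). A noncoding RNA gene on the opposite strand, AT5G00900, overlaps 23.9% of its exon bases. AT3G09700 had 119, 127 and 141 scaled counts in xal1-2, against 101, 116 and 97.8 in WT, without overlap (log2 fold change 0.30, SE 0.14, limma adjusted p = 0.283). AT2G35795 had 170.1, 146 and 173 scaled counts in xal1-2, against 168, 137 and 155 in WT, with overlap (log2 fold change 0.09, SE 0.14, limma adjusted p = 0.749).

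All 4 small TIM genes had log2 fold changes above 0, with a median of 0.45; 2 were called higher and 0 lower. TIM10 (AT2G29530, chr2:12640800-12642387, minus strand) had 565, 597 and 542 scaled counts in xal1-2, against 358, 323 and 398 in WT (log2 fold change 0.66, SE 0.11, limma adjusted p = 0.00799). TIM13 (AT1G61570, chr1:22718462-22719535, minus strand) had 399, 447 and 394 scaled counts in xal1-2, against 295, 271 and 309.8 in WT (log2 fold change 0.50, SE 0.10, limma adjusted p = 0.0265). Neither gene overlapped between groups. Their partners TIM9 (0.39) and TIM8 (0.37) had log2 fold changes that were not called, with limma adjusted p-values of 0.0524 and 0.144. A noncoding RNA gene on the same strand, AT2G08345, overlaps 23.1% of the exon bases of TIM10, so reads there cannot be told apart by strand.

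TIM22, the channel to which the small TIM chaperones deliver carrier proteins, is encoded by MEE67 (AT3G10110, chr3:3116110-3117894, plus strand) and AT1G18320 (chr1:6304360-6305689, plus strand). MEE67 had 83.3, 128 and 88.2 scaled counts in xal1-2, against 53.2, 44.1 and 53.0 in WT, and was called higher (log2 fold change 0.96, SE 0.20, limma adjusted p = 0.0274). AT1G18320 had 23.97, 22.2 and 24.7 scaled counts in xal1-2, against 17.4, 11.02 and 16.45 in WT, without overlap but not called (log2 fold change 0.65, SE 0.28, limma adjusted p = 0.236). In both genes all mutant libraries were above all WT libraries.

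The split of TIM22 reads between its genes is uncertain, because the copies are nearly identical. Over 429 aligned coding bases 5 differed (98.8% identity), and 41.7% of the 50-base stretches of the shorter transcript also occurred in the other. The stretch of 90 coding bases with the most differences is printed, with 3 of the 5 differing bases in capitals. It covers coding bases 23 to 112 of AT1G18320 and 116 to 205 of MEE67.
AT1G18320: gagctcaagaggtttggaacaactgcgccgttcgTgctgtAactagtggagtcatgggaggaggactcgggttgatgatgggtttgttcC
MEE67: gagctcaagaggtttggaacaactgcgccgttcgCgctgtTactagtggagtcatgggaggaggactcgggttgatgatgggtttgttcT
How such reads were counted was not stated in the labels or processing notes. If each shared read was counted for a single copy, the sum of scaled counts over the pair does not depend on this split. If such reads were dropped or counted for both copies, the sum is affected as well. It was 107.3, 149.9 and 113 in xal1-2, against 70.56, 55.1 and 69.5 in WT, without overlap. No other pair of copies among the 42 shared a 50-base stretch.

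MIA40 (AT5G23395, chr5:7874572-7876427, minus strand), the receptor that oxidises incoming proteins, had 146, 152 and 141 scaled counts in xal1-2, against 104, 85.95 and 105 in WT, without overlap (log2 fold change 0.57, SE 0.14, limma adjusted p = 0.0475). ERV1, the oxidase that recharges MIA40, was not called (log2 fold change 0.61, SE 0.23, limma adjusted p = 0.169). Of the 11 called genes, MIA40 and AT5G03030 were the pair that limma called in none of the fits that left out 1 library. TOM7-2 was called in 5 of these 6 fits, TIM10 in 4, OM64 in 3 and each of the other 6 genes in 1.

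SAM and MPP had no called gene. The SAM50 genes, which encode the barrel-inserting pore, had log2 fold changes of 0.03 (AT3G11070, SE 0.12) and -0.01 (AT5G05520, SE 0.10), with limma adjusted p-values of 0.926 and 0.981. The sign of either value changed with the scaling or the library left out. The metaxin gene AT2G19080, an accessory SAM subunit, came closest to a call (log2 fold change 0.36, SE 0.12, limma adjusted p = 0.121).

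MPP cuts presequences off in the matrix, and its genes MPPBETA and AT1G51980 had the most abundant transcripts of the 42 per kilobase. MPPBETA (AT3G02090, chr3:365537-368911, plus strand) had 5374, 6328 and 5192 scaled counts in xal1-2, against 6459, 6595 and 5649.8 in WT, with overlap (log2 fold change -0.15, SE 0.14, limma adjusted p = 0.62). The alpha subunit gene AT1G51980 (chr1:19323055-19326918, minus strand) had 2804, 3304 and 2616 scaled counts in xal1-2, against 3039, 3309 and 2859.6 in WT, also with overlap (log2 fold change -0.08, SE 0.12, limma adjusted p = 0.74). The second alpha gene, MPPalpha (AT3G16480), was not called either (log2 fold change 0.21, SE 0.11, limma adjusted p = 0.319). Together with TIM17-3, MPPBETA and AT1G51980 had the lowest fold changes of the 42.

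Summed over its genes and divided by exon length, each complex other than MPP had a higher transcript level in every xal1-2 library than in every WT library. TOM averaged 4329 ± 266 scaled counts per kilobase in xal1-2 and 3433 ± 184 in WT (SD, n = 3 each), a ratio of 1.26. The small TIM chaperones averaged 2825 ± 208 in xal1-2 and 2021 ± 154 in WT, a ratio of 1.40. The ratio was 1.84 for TIM22, 1.50 for MIA, 1.25 for PAM, 1.24 for TIM23 and 1.11 for SAM. Within SAM the metaxin gene averaged 214.7 ± 24.1 in xal1-2 and 166.7 ± 15.89 in WT. The SAM50 pair averaged 299.6 ± 13.22 in xal1-2 and 297.3 ± 8.611 in WT, with overlap, so the higher SAM sum was not shared by all its genes. MPP averaged 4231 ± 458 in xal1-2 and 4559 ± 338 in WT, a ratio of 0.928, and its groups overlapped. These sums are a description, with no test and no background from other gene sets.

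**Figure D3:**
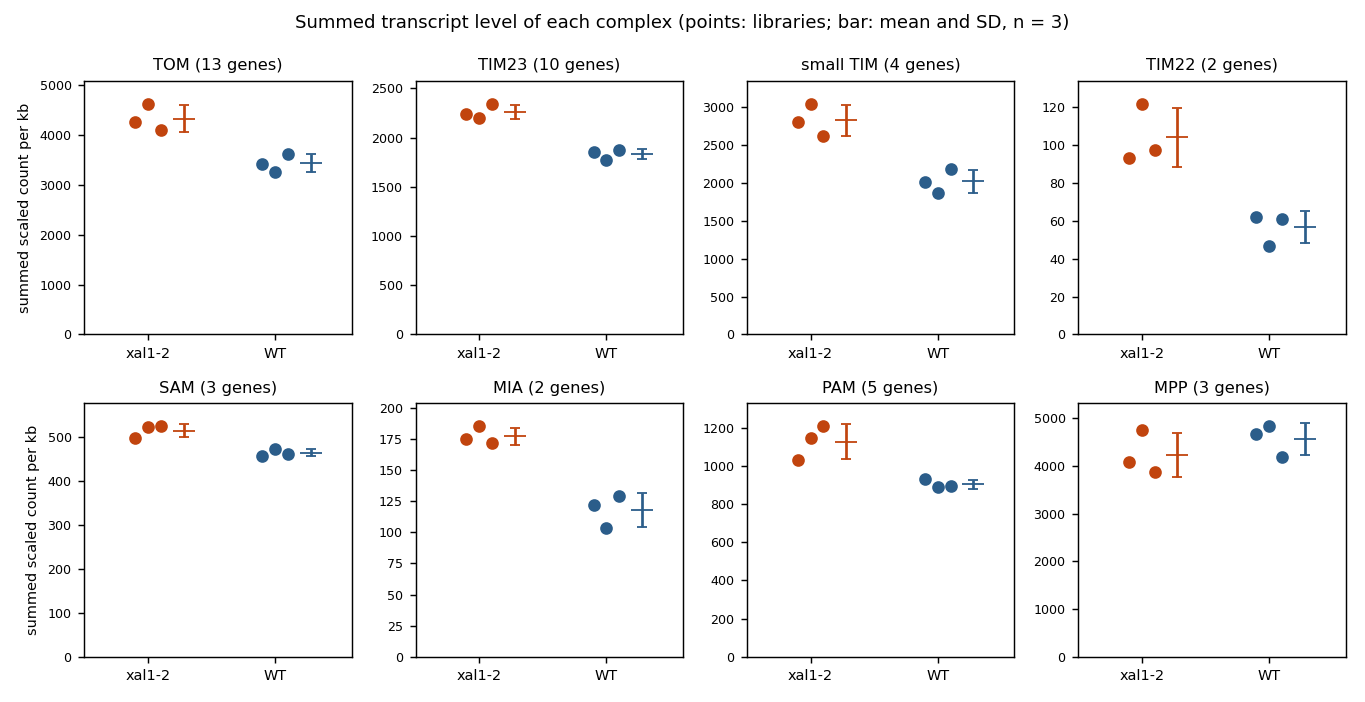
Summed transcript level of each import complex per library, in scaled counts per kilobase of exon (points, 3 xal1-2 and 3 WT libraries; bars, mean and SD). In each complex but MPP the mutant points lie above the WT points.

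Because 29 of the 42 genes belong to 12 families of copies, the share of each copy in its family was compared per kilobase of exon. TOM7-2 made up 30.5, 29.6 and 25.7% of TOM7 transcript in xal1-2, against 9.9, 14.5 and 14.2% in WT. The rest of TOM7 is AT5G41685, whose count may hold reads of its neighbour AT5G41680, so the size of this share is uncertain. PAM16L made up 33.8 ± 1.81% of its family in xal1-2 and 27.3 ± 1.86% in WT (SD, n = 3 each). TOM20-2 made up 33.7 ± 0.547% of TOM20 in xal1-2 and 28.9 ± 2.5% in WT. In each of these families the called copy held a larger share in every mutant library than in any WT library. Called copies, here and below, were called from the same libraries. Their larger shares follow in part from that call and are no separate evidence of a shift in balance.

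AT1G50400 made up 9.86 ± 2.12% of TOM40 transcript in xal1-2 and 5.57 ± 1.94% in WT, so TOM40 itself still carried over 88% of it in every mutant library. AT5G03030 made up 39.8 ± 4.36% of PAM18 in xal1-2 and 33.8 ± 2.43% in WT. TIM23-3 made up 2.87 ± 0.665% of its family in xal1-2 and 1.57 ± 0.724% in WT. MEE67 was the called copy whose share overlapped, at 63.1, 73.9 and 63.7% of TIM22 in xal1-2, against 60.1, 66.3 and 61.3% in WT. Families with no called copy went both ways. TOM22-I held 20.9 ± 0.961% of its family in xal1-2 and 20.9 ± 1.84% in WT, with overlap. The SAM50 copy AT3G11070 held 41.8 ± 3.91% in xal1-2 and 41.2 ± 1.17% in WT, also with overlap. Shares of TIM23-3, TIM17-2 and TIM17-3 did not overlap. TIM17-2 held 87.0, 87.9 and 87.7% of TIM17 in xal1-2, against 86.7, 86.9 and 80.9% in WT.

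In all, 12 of the 29 shares did not overlap between groups. No such count was made for other gene families, so this number has no background beside it. They came from 7 families, and since the shares of a family add up to the whole, a family of a pair of copies counts the same shift for both. Each of the 12 had a two-sided exact permutation p of 0.1. With 3 libraries against 3 this test cannot give a smaller p, so it could call no shift of any size and does not show that the balance was the same.

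**Figure D4:**
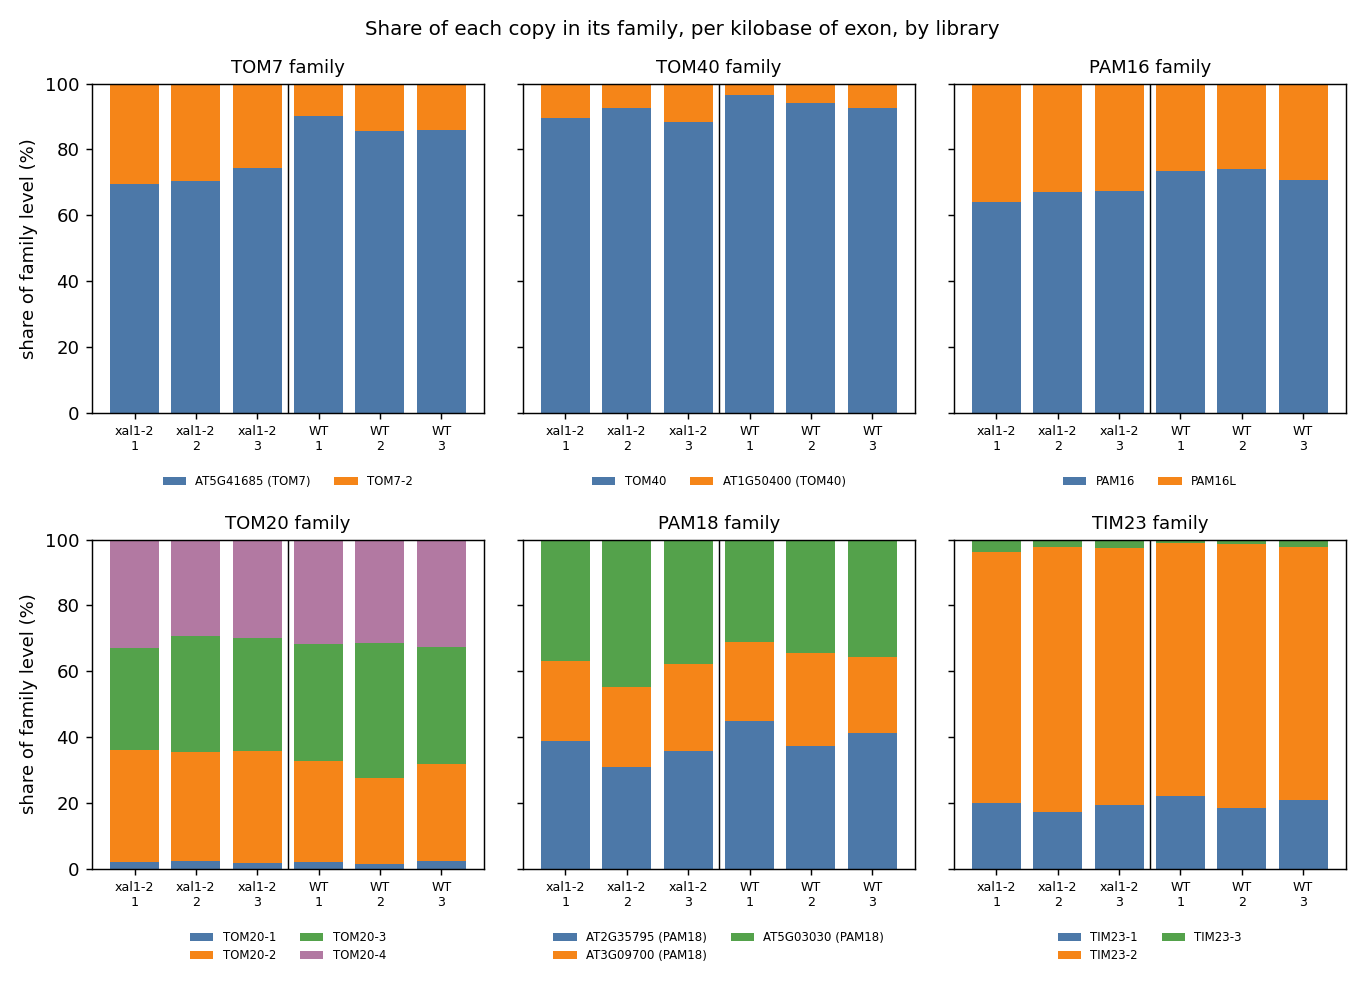
Share of each copy in the transcript level of its family (%, scaled counts per kilobase of exon) in each xal1-2 and WT library, for 6 families. The share of TOM7-2 lies between 25.7 and 30.5% in xal1-2 and between 9.9 and 14.5% in WT.

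Sequences before the annotated start of each gene were searched for motifs known from genes for mitochondrial proteins. Site II elements (TGGGCC or TGGGCT, either strand) and the telo-box (AAACCCTA, either strand) are found before many plant genes of growing tissue, and the mitochondrial dysfunction motif (CTTGNNNNNCAAG or CTTGNNNNNCACG, either strand) is bound by ANAC013 and ANAC017, transcription factors of the signalling from mitochondria to the nucleus. Within 250 bases before the start, a window of the same length for every gene, 21 of the 42 import genes held a site II element (50%, against 20.9% of 22882 protein-coding genes tested). It stood before 4 of the 11 called genes (36.4%) and 17 of the 31 that were not called (54.8%). A telo-box stood before 8 of the 42 (19%, against 3.79%), among them 4 of the 11 called genes (36.4%) and 4 of the 31 others (12.9%).

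The mitochondrial dysfunction motif stood before 1 of the 42 (2.38%, against 1.09% of the protein-coding genes tested). That gene was TIM50, which was not called. These counts describe letters in a fixed window and do not show binding.

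Upstream stretches of genes on which the results turn are printed from RefSeq in TAIR10.1 along the strand of the gene, with motif matches in capitals, none of which overlap. TOM20-2, the called TOM20 gene, is beside TOM20-4, which was not called, and both hold site II elements. TOM20-2 also holds a telo-box that begins 98 bases before its start, outside the printed stretch, and TOM20-4 holds none in the window. TIM10 and TIM13 are the called small TIM genes, and TIM50 holds the mitochondrial dysfunction motif.
TOM20-2 (chr1:9515051-9515105, minus strand): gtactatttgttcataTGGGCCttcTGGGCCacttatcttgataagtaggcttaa
TOM20-4 (chr5:16404347-16404456, plus strand): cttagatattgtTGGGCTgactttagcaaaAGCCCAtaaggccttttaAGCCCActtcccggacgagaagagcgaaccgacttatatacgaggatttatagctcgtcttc
TIM10 (chr2:12642388-12642447, minus strand): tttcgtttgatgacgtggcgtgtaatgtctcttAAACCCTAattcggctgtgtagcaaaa
TIM13 (chr1:22719571-22719630, minus strand): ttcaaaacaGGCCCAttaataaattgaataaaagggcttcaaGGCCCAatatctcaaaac
TIM50 (chr1:20902928-20903052, plus strand): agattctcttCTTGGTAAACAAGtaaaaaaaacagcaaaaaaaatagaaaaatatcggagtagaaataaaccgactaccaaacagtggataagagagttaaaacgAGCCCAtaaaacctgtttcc
The site II pair of TOM20-2 lies 39 and 30 bases before its start, and those of TOM20-4 begin 98, 80 and 62 bases before its start. In TIM10 the printed telo-box begins 27 bases before the start. The called genes OM64, AT1G50400, PAM16L, AT5G03030 and MIA40 held none of the motifs in this window.

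Genes that work beside the 42 were read from a list of 25, of which 9 were called higher (36%, against 1.66% of all genes tested). The list includes 7 signalling genes, which gave 4 of the 9 calls. Some of these 7 were listed because earlier results of these data showed them, so the share of 36% is no test. The chaperones that drive the import motor were called higher in 3 of 4 cases. The matrix Hsp70 gene mtHsc70-1 (AT4G37910) had 2719, 3259.8 and 2479 scaled counts in xal1-2, against 1500.3, 1714 and 1689 in WT, without overlap (log2 fold change 0.78, SE 0.12, limma adjusted p = 0.00761). Its nucleotide exchange factors AT5G55200 (log2 fold change 0.90, limma adjusted p = 0.00801) and AT4G26780 (0.48, limma adjusted p = 0.0475) were also called higher, and mtHsc70-2 was not (0.33, limma adjusted p = 0.208).

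Of 6 presequence and intermediate peptidases 1 was called higher, ICP55 (log2 fold change 0.64, limma adjusted p = 0.0188), which trims proteins after MPP. Of 4 outer membrane porins 1 was called higher, VDAC3 (0.53, limma adjusted p = 0.0261). None of the 2 OXA1 insertases or the 2 TRIC genes was called, and none of the 25 was called lower.

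Of 7 genes of the signalling from mitochondria to the nucleus, 4 were called higher, against 1.66% of all genes tested. Some of the 7 were listed because earlier results of these data showed them, so this count is no test. AT12CYS-2, a small cysteine-rich mitochondrial protein, had 651, 814 and 572 scaled counts in xal1-2, against 6.51, 9.92 and 10.05 in WT (log2 fold change 6.12, limma adjusted p = 7.97e-08). NDB4, an alternative NADH dehydrogenase, had a log2 fold change of 6.03, UPOX 3.97 and ANAC013 1.24, with limma adjusted p-values of 5.29e-06, 0.0021 and 0.00249. UPOX had 425, 634 and 589 scaled counts in xal1-2, against 21.7, 16.5 and 102 in WT, where replicate 3 stood apart. AOX1A, the alternative oxidase often used as a marker of this signalling, was not called (0.31, limma adjusted p = 0.181), nor were OM66 and ANAC017. The largest change of an import gene, that of TOM7-2, was far below those of AT12CYS-2, NDB4 and UPOX. Since some signalling genes were listed for their change in these data, this is no even comparison of the lists.

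Markers of root cell types also moved between the genotypes. Of 5 endodermis markers 3 were called lower, as were 3 of 4 xylem and 3 of 4 phloem markers, against 2.27% of all genes tested. The summed level of the endodermis markers ran from 2736 to 3000.0 scaled counts per kilobase in xal1-2 and from 3628 to 4560.0 in WT, that of the xylem markers from 966 to 1126 in xal1-2 and from 1284 to 1504 in WT, and that of the phloem markers from 360.3 to 529 in xal1-2 and from 641 to 835 in WT. None of the 5 dividing-cell, 5 stem cell niche, 4 root hair, 3 root cap or 6 green tissue markers was called. The dividing-cell sum ran from 599.8 to 662 in xal1-2 and from 552 to 695 in WT, and the niche sum from 292 to 358 in xal1-2 and from 289 to 299.5 in WT. The root hair sum ran from 1178 to 1900.0 in xal1-2 and from 1301 to 2050.0 in WT, and the root cap sum from 96.1 to 124.8 in xal1-2 and from 81.8 to 99.6 in WT. Green tissue markers were present in both groups, from 1948 to 3317 in xal1-2 and from 2603 to 3338 in WT, with RBCS1B and LHCB1.1 at or near 0. The part of these cell type differences in the import gene values was not tested.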

How the data were processed

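Per the labels, stranded mRNA libraries for paired-end sequencing were made from 3 xal1-2 and 3 WT root samples. The submitters' processing notes name Subread 2.0.1, Trimmomatic 0.39, FastQC 0.11.9, DESeq2 and the TAIR10 build, with strand and multi-mapping settings not given in the sources used here. The deposited table of 32833 genes holds a signal per library, counts that the authors divided by a size factor, and its mean. Multiplied back, 100% of the deposited values above 0 were whole reads in every library (tolerance 0.001 read). The authors' deposited log2 fold change, its score (the test statistic) and p-values were read for comparison and are not printed. The main test was limma-trend (limma 3.58.1, R 4.3.3) with genotype as sole term on log2(scaled count + 1). It covered the 24441 genes with a read in any library, and p-values were adjusted by Benjamini-Hochberg. Alternatives were edgeR 4.0.16, DESeq2 1.42.0 and limma-voom on the recovered reads, other scalings, pseudocounts and filters, the replicate number as a block, and leaving out each library. The fits were tested on simulated data. The p-values measure the spread between replicates that the labels call biological. The members and lists were chosen with earlier results of these data known. Values per library are given for members called, for their copies, and for the 3 highest and 3 lowest fold changes; other members and genes have single values. Library values of AT12CYS-2, mtHsc70-1 and UPOX were added after they were seen. Of the gene identifiers, 32548 matched the reference annotation (TAIR10.1, RefSeq), whose names, exon lengths, coordinates and sequences were used; the table itself holds no coordinates and none were converted.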

Additional observations from a re-analysis of the deposited data

How the results depend on the processing

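Of the 42 import genes 0 were called lower under any of the 16 alternatives, and the median of their log2 fold changes ran from 0.32 to 0.42. The number of calls moved more. With no filter limma called 154 genes in all, 84 higher and 70 lower, and 0 of the 42 import genes higher. Leaving out 1 library gave from 81 to 871 genes called, from 38 to 372 higher and from 43 to 499 lower, and from 0 to 10 of the 42 higher; the lowest counts came without xal1-2 replicate 1. Library totals in place of size factors shifted the median of all genes from -0.004 to 0.053. The check of pairing gave correlations of 0.0103, 0.282 and 0.0106 between libraries of the same number. Replicate 2 of xal1-2 correlated best with the WT library of its own number (0.282), and xal1-2 replicate 1 with WT replicate 3 (0.181). For xal1-2 replicate 3 all values lay near 0, from -0.012 to 0.0106. The main fit did not pair the samples. With the replicate number as a block, 309 genes were called higher and 530 lower, 8 of the 42 import genes among the higher.

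Changes of sign concerned genes near 0, none of them called. The log2 fold change of AT5G05520 (SAM50) was 0.003 with edgeR, with limma-voom and with TMM factors and 0.055 with library totals, and that of TIM17-3 was 0.02 with library totals. With 1 library left out, the values ran from -0.031 to 0.022 for AT5G05520, from -0.055 to 0.135 for AT3G11070 (SAM50), from -0.191 to 0.17 for TIM17-3, from -0.041 to 0.117 for AT5G41685 (TOM7) and from -0.104 to 0.481 for TIM44-1. The cause of these changes was not tested. The shares that did not overlap numbered 12 with no division by exon length and from 12 to 17 without 1 library. Depth limited TIM17-1, TIM44-1, TIM23-3, AT1G18320 (TIM22) and TOM20-1, which had at most 33 reads in a library. TIM17-1 and TIM44-1 had no value with edgeR, limma-voom, DESeq2 (adjusted p not given) or the filter of a mean of at least 10, and TIM17-1 none without xal1-2 replicate 3.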
